A study of Homo sapiens with 15 samples.

Results

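The 35 genes described here encode proteins of synaptic vesicles and of the ribbon synapse, the release site of photoreceptors and bipolar cells. They form a list of gene symbols set by function and not by a rule on their levels. Earlier results of these data were known when the list was chosen. All 35 were found among the 19684 genes of the deposited tables. By role they comprise 4 vesicle membrane proteins, 3 synapsins, 4 synaptotagmins, 5 SNARE proteins, 4 complexins, 6 priming and active zone proteins, 5 proteins of the ribbon and its calcium entry, 3 vesicular glutamate transporters and the presynaptic adhesion protein NRXN3. Poly(A) RNA was sequenced from 15 libraries in 5 groups of 3, all derived from the human induced pluripotent stem cell (hiPSC) line BC1-GFP, with a genotype labelled WT. The groups were undifferentiated hiPSCs, the neural retina layers of retinal organoids (ROs) at 70 days (D70-ROs, or D70) and 150 days (D150-ROs, or D150) of differentiation, and induced Müller glial cells (iMGCs) at passage 1 (P1) and passage 5 (P5). The iMGCs were grown from dissociated neural retina layers of D150-ROs on Matrigel in medium with fetal bovine serum. An RO experiment pooled 5 ROs by the samples' protocols (3 to 5 by the series text). Every library shares the same line, so the spread between replicates holds no variation between donors. The culture medium also differed between the groups. By the paper's methods the ROs too were kept in medium with fetal bovine serum, and with taurine, while hiPSCs had a stem cell medium. Between D70 and D150 the supplement B27 of the RO medium gave way to N2. The part of these media in the results was not tested.

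Neurotransmitter release requires vesicles that are filled by a transporter, tethered and primed at the active zone, and fused with the membrane by SNARE proteins when calcium binds to a synaptotagmin. Complexins clamp the SNARE complex and help its release. In photoreceptors and bipolar cells the vesicles are held on a ribbon, whose main protein RIBEYE is made from the CTBP2 gene, and release is sustained by L-type calcium channels. These synapses are known to use syntaxin 3 in place of syntaxin 1, the complexins CPLX3 and CPLX4, and the glutamate transporter VGLUT1, which is encoded by SLC17A7. Müller glial cells are the radial glia of the retina and form no ribbon synapses.

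Depth, as the sum of expected counts, ran from 11349600 in D70-RO replicate 2, the lowest library, to 20398755. All levels below are in FPKM, a count of fragments scaled for the length of the transcript and for the depth of the library. The summed FPKM of 13 photoreceptor markers was 19.0 to 19.7 in hiPSCs, 172 to 185 in D70-ROs, 1512 to 1686 in D150-ROs and at most 1.52 in iMGC libraries, and that of 11 bipolar markers was 39.1 to 48.9, 335 to 364, 790 to 858 and at most 17.2. The bipolar genes TRPM1 and LRTM1 had means of 0.06 and 0.21 FPKM in D150-ROs. Of 12 glial markers, 8 had at least 1 FPKM in at least 3 iMGC libraries. The summed FPKM of all 12 was 2544.5 to 2574.8 at P1 and 3397.5 to 3499.2 at P5. For ROs the sum was 2207.7 to 2483.2 at D150 and 2292.6 to 3483.1 at D70, and hiPSCs had 1012.3 to 1086.6. Among these markers VIM reached a mean of 2160 FPKM in P1 iMGCs, whereas RLBP1, AQP4 and KCNJ10 had means of 0 to 0.03 FPKM in the iMGC groups. The summed FPKM of 10 mesenchymal and matrix markers was 41.0 to 73.8 in ROs and 12522 to 14076 in iMGCs. The photoreceptor, bipolar and mesenchymal sums moved with the groups, whereas the glial sums of the 2 RO stages overlapped. The part of all these markers in the results was not tested. The samples' protocols speak of 3 experiments per group but the series text of 2 for hiPSCs and ROs, and since no label assigns a batch, any batch running with the groups cannot be told apart from the stage. The series text also names 2 sequencing companies and a median-based correction for batches in the joint analysis, and whether the deposited values carry it is not given in the sources used here.

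The summed FPKM of the 35 genes was 289 to 307 in hiPSCs, 743 to 819 in D70-ROs, 1829 to 1944 in D150-ROs, 131 to 137 in P1 iMGCs and 124 to 127 in P5 iMGCs, and no 2 groups overlapped. The highest group mean was found in D150-ROs for 23 genes, in D70-ROs for 7, in hiPSCs for 4 and in P1 iMGCs for 1. A mean of at least 1 FPKM was reached by 18 genes in hiPSCs, 29 in D70-ROs, 29 in D150-ROs and the same 12 in P1 and P5 iMGCs. A mean of at least 100 FPKM was reached by UNC119 in D70-ROs and by SYP, SYT1, SNAP25, STX3, VAMP2 and UNC119 in D150-ROs.

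**Figure D1:**
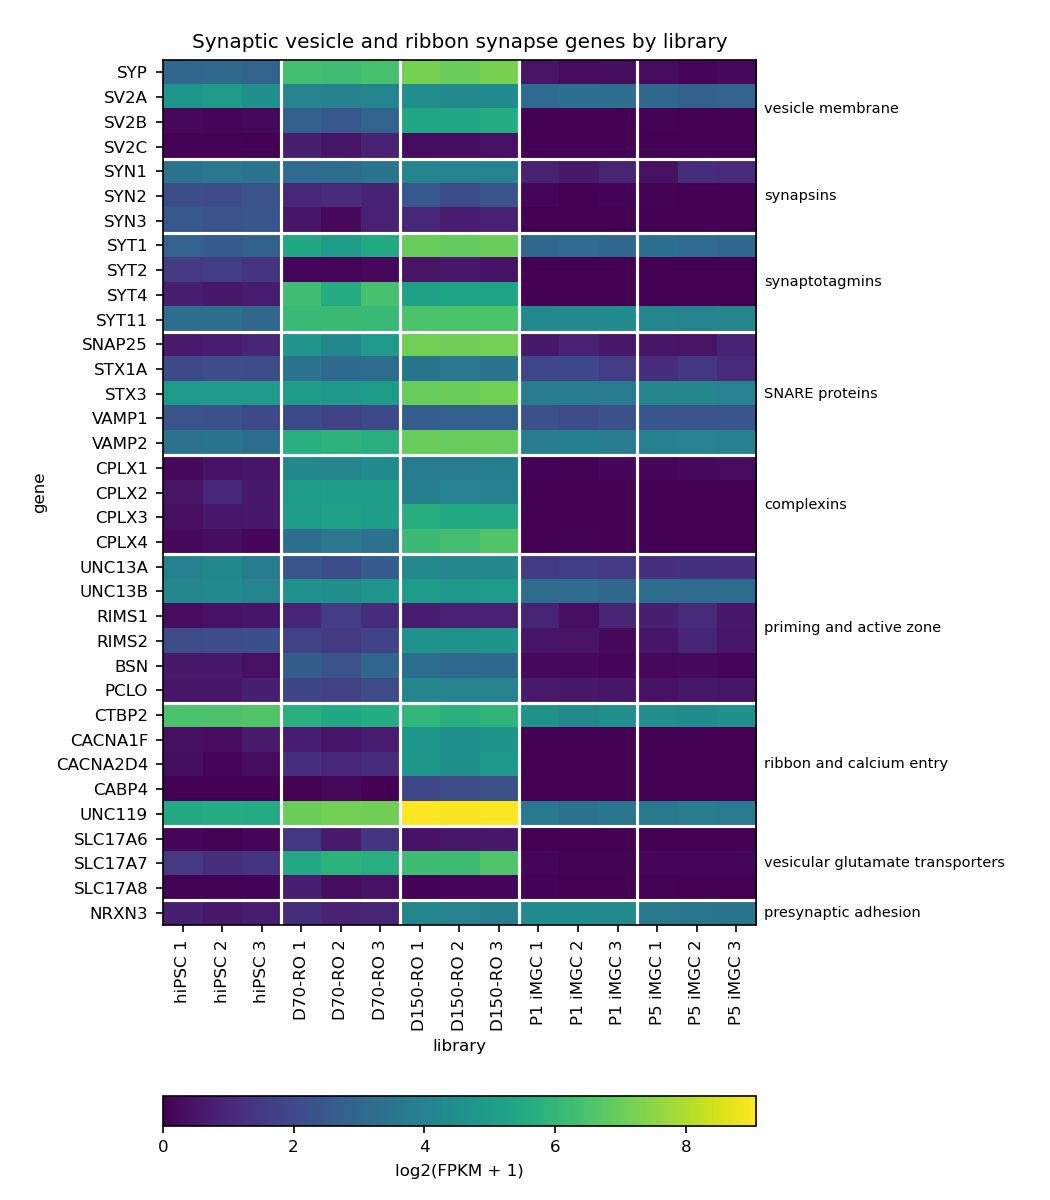
The level of each of the 35 genes (rows, grouped by role) in each of the 15 libraries (columns, white lines between groups), on the colour scale log2(FPKM + 1). The 3 D150-RO columns are the brightest for most genes, and 10 genes have no count in any of the 3 P1 iMGC columns.

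The design asks which genes rose from hiPSCs to D70-ROs, which rose or fell from D70-ROs to D150-ROs, and which were still present in the iMGCs. A gene entered a test when it had at least 1 FPKM in at least 3 of the libraries compared, and was called when the adjusted p from edgeR's quasi-likelihood test was under 0.05 and the fold change was at least 2.

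In D70-ROs, 17 of the 28 genes tested were called higher than in hiPSCs and 4 were called lower, where 22.5% of all 12954 genes tested were called higher and 21.1% lower. The median log2 fold change was 2.21 over the 28 genes and 0.02 over all genes tested. The 4 genes called lower were SYN2, SYN3, SYT2 and UNC13A. SV2C, RIMS1, CACNA1F, CABP4, SLC17A6, SLC17A8 and NRXN3 did not reach the level needed for the test. A gene that reaches it only in the group where it is high has to differ. The counts and medians here and in every comparison and list below thus describe the genes that were tested and not all genes listed. Since these are bulk samples, fewer cells of a type and less RNA per cell cannot be told apart here or in any comparison below.

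In D150-ROs, 15 of the 29 genes tested were called higher than in D70-ROs and 2, SYT4 and CPLX2, were called lower, where 16.6% of all 12855 genes tested were called higher and 16.7% lower. The median log2 fold change was 1.25 over the 29 genes and -0.01 over all genes tested. SV2C, SYN3, SYT2, RIMS1, SLC17A6 and SLC17A8 were not tested. Over all genes edgeR called 2131 higher and 2145 lower, against 1868 and 2434 with upper-quartile scaling, where the median of all genes was -0.11. With limma on log2(FPKM + 1), which differs in model, measure and scaling at once, 2250 were higher and 1302 lower and the median was 0.19. These comparisons share the D70-RO libraries, so the values of each are given side by side for each gene.

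**Figure D2:**
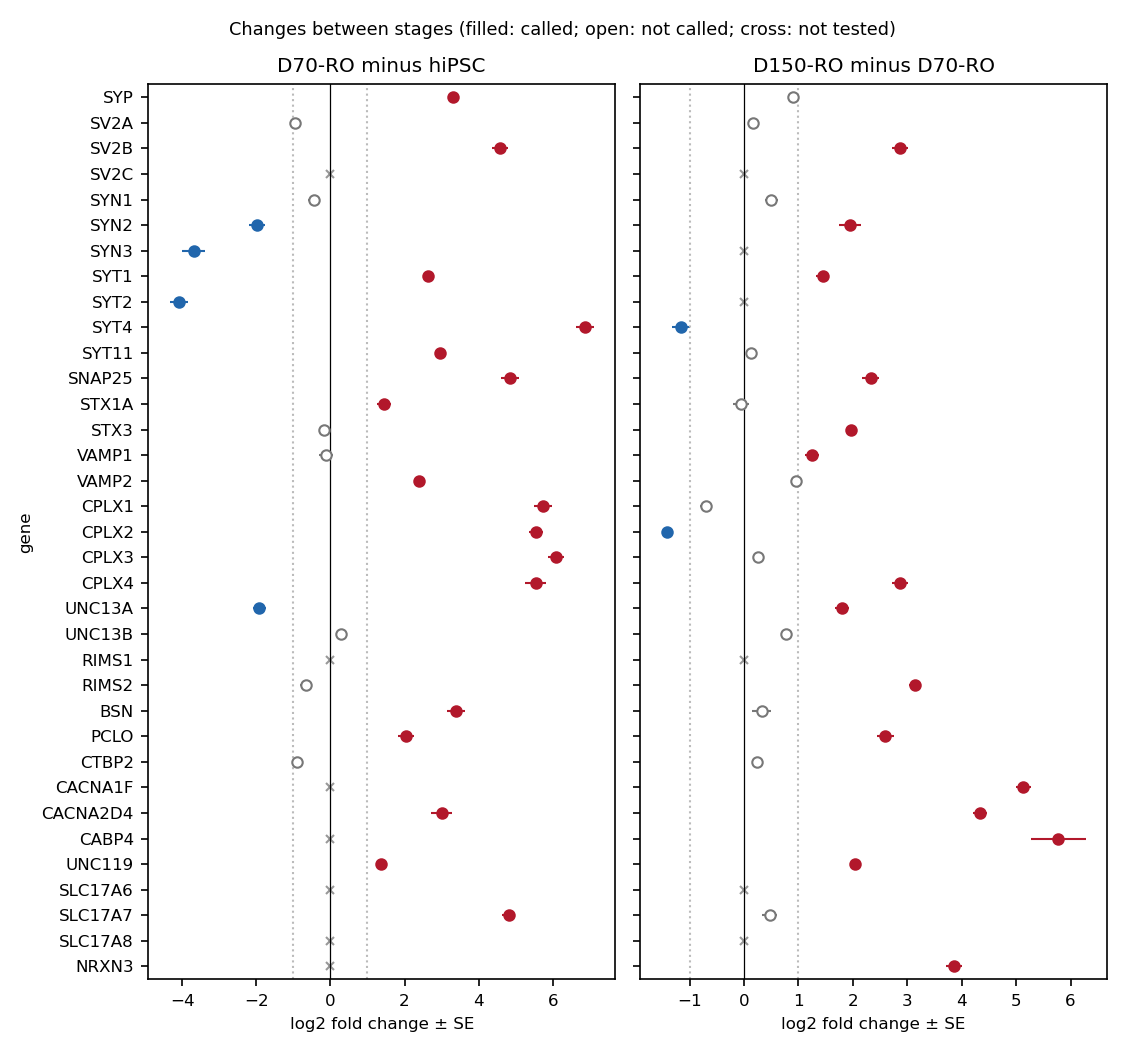
Log2 fold change ± SE of each gene from hiPSCs to D70-ROs (left) and from D70-ROs to D150-ROs (right), with filled points for called genes, open points for genes that were tested and not called, and crosses for genes not tested, which have no value and are drawn at 0. SYT4 has the largest increase at left (6.87), and CABP4 (5.78) and CACNA1F (5.13) have the largest at right.

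Short stretches upstream of 4 of the genes are shown because they contain a searched motif. CACNA1F and CPLX4 were called higher from D70 to D150, CPLX3 was called higher from hiPSCs to D70, and SYN1 was called in neither direction at these stages. The search used the 250 bases before each RefSeq transcript start (build GRCh38.p14) on both strands, for TAATCC, the core recognised by homeodomain factors such as CRX and OTX2, and for CAGCACC followed after 2 free bases by GGACAG, a core form of the element bound by REST, a repressor of neuronal genes. RefSeq windows were at hand for 30 of the 35 genes, in 46 windows. TAATCC was found in 6 of the 46 windows (13%), of CACNA1F, CPLX3, CPLX4, SV2B and CTBP2, and in 5.62% of all 35116 windows. The REST-type letters were found in 1 of the 46 windows, that of SYN1, and in 16 of all 35116. A match is a string of letters and no evidence of binding. Each stretch reads 5′ to 3′ on the strand of its gene, the capitals mark the motif, and the print stops where the GENCODE 29 gene begins. The motif lies 37 to 32 bases before the RefSeq start in CACNA1F, 6 to 1 in CPLX4, 225 to 220 in CPLX3 and 231 to 217 in SYN1.
CACNA1F, chrX:49233372-49233460, minus strand: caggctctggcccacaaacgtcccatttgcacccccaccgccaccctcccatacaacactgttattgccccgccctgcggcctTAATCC
CPLX4, chr18:59318650-59318769, minus strand: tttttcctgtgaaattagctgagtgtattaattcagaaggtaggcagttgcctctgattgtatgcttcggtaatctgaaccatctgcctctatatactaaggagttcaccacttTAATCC
CPLX3, chr15:74826377-74826546, plus strand: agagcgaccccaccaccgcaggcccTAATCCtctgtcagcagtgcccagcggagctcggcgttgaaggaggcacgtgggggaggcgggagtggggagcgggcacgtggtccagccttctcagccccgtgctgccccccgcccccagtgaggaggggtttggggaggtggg
SYN1, chrX:47619944-47620107, minus strand: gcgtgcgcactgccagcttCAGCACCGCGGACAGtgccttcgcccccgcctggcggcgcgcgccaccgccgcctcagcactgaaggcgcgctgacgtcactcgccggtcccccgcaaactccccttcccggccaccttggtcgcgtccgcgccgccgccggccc

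Of the vesicle membrane proteins, SYP (synaptophysin, an abundant protein of the vesicle membrane) and SV2B were called higher in D70-ROs, and of these SV2B was called higher again from D70 to D150. SYP (chrX:49187804-49200259) measured 7.03, 7.74 and 6.48 FPKM in hiPSCs, 81.7, 76.8 and 84.9 at D70 and 147, 132 and 151 at D150. The 3 groups did not overlap, with a log2 fold change of 3.30 ± 0.14 (SE) to D70 (adjusted p = 6.31e-09 by edgeR) and 0.89 ± 0.08 from D70 to D150 (adjusted p = 1.32e-05), under the 2-fold limit. The later step of SYP was 1.20 and called when a trend on transcript length was removed. SV2B, a vesicle glycoprotein, measured 0.15, 0.12 and 0.14 FPKM in hiPSCs, 5.87, 4.53 and 6.61 at D70 and 42.7, 42.1 and 47.5 at D150, with a log2 fold change between the RO stages of 2.86 ± 0.15. Its relative SV2A, the widely expressed form, was highest in hiPSCs at 26.6 ± 4.28 FPKM (SD, n = 3) and had means of 15.3 at D70 and 20.1 at D150. The fall to D70 was -0.94 on the log2 scale and was not called, but was called at -1.05 without hiPSC replicate 3 and at -1.12 with a length trend removed. SV2B therefore made up 0.38% to 0.61% of the SV2 FPKM in hiPSCs, 23.4% to 28.3% at D70 and 66.8% to 69.9% at D150. SV2C stayed at or below 0.83 FPKM in every library.

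The synapsins, which tether vesicles to each other and to the cytoskeleton, were expressed in hiPSCs and did not rise at D70. SYN1 measured 10.2, 11.5 and 10.2 FPKM in hiPSCs, 8.01, 8.69 and 10.1 at D70 and 16.7, 15.7 and 15.2 at D150, with no call in either step. SYN2 measured 3.41, 3.16 and 4.00 FPKM in hiPSCs, 0.99, 1.21 and 0.83 at D70 and 4.64, 3.26 and 4.27 at D150, so that its level fell by 1.98 on the log2 scale and then rose by 1.95 ± 0.20 (adjusted p = 3.47e-05 by edgeR). The hiPSC and D150-RO values of SYN2 overlap. SYN3 had 3.97 to 4.71 FPKM in hiPSCs and at most 1.04 in any RO library, with a log2 fold change of -3.69 ± 0.31 to D70. The genes TIMP1 and TIMP3, which lie within SYN1 and SYN3 on the opposite strand, share no exon bases with them, and TIMP4 shares 2.99% of the exon bases of SYN2. TIMP4 fell by 2.73 on the log2 scale from hiPSCs to D70-ROs, the same direction as SYN2. From D70 to D150, where SYN2 rose, TIMP4 had means of 1.11 and 1.09 FPKM. Whether the counting used strand is not given in the sources used here.

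The synaptotagmins are vesicle proteins of which SYT1 and SYT2 bind calcium and trigger fast release, while SYT4 and SYT11 lack fast calcium sensing. SYT1 measured 6.19, 4.88 and 6.06 FPKM in hiPSCs, 41.3, 30.5 and 45.1 at D70 and 123, 122 and 129 at D150, and was called higher in both steps, at 2.64 ± 0.16 and 1.44 ± 0.13. The second step of SYT1 was 0.99, just under the limit, when the length trend was removed. SYT4 measured 0.71, 0.52 and 0.67 FPKM in hiPSCs, 77.1, 48.3 and 85.7 at D70 and 35.7, 37.1 and 37.4 at D150. It thus had the largest increase of all 28 genes tested to D70, 6.87 ± 0.24 (adjusted p = 1.7e-09 by edgeR), and then fell by 1.15 on the log2 scale (adjusted p = 0.000279), a call that was lost with limma (-0.88 and -0.89 with pseudocounts of 1 and 0.1) and with a test against a 2-fold change. D70-RO replicate 2 was the lowest D70-RO library for SYT1, SYT4 and SNAP25. Its summed FPKM was 1133 against 1235 and 1342 in the others for 8 pan-neuronal markers, 3483 against 2509 and 2293 for 12 glial markers, 142 against 101 and 86.5 for 8 pigment epithelium markers and 73.8 against 51.5 and 46.3 for the mesenchymal markers, and their part in these values was not tested. SYT11 had means of 8.21 FPKM in hiPSCs, 69.9 at D70 and 89.3 at D150 and was called only at D70, and its later step turned to -0.42 with the length trend removed. SYT2, a calcium sensor, ran the other way: it had 1.58 to 2.11 FPKM in hiPSCs and 0.1 to 0.52 in ROs, with a log2 fold change of -4.09 ± 0.25 to D70. SYT2 shares 27.1% of its exon bases with PPP1R12B on the opposite strand.

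The SNARE proteins form the bundle that fuses vesicle and membrane, and SNAP25, STX3 and VAMP2 were the leading ones in D150-ROs. SNAP25 measured 0.58, 0.67 and 0.93 FPKM in hiPSCs, 25.6, 17.7 and 28.1 at D70 and 139, 136 and 145 at D150, called higher in both steps at 4.85 ± 0.24 and 2.32 ± 0.15. STX3, the syntaxin of ribbon synapses, measured 29.2, 28.8 and 28.4 FPKM in hiPSCs and 30.3, 27.8 and 30.1 in D70-ROs, which overlap. It then measured 124, 129 and 138 FPKM in D150-ROs, a log2 increase of 1.96 ± 0.08 (adjusted p = 1.94e-07 by edgeR). STX1A, the syntaxin of conventional synapses, instead rose at D70, by 1.45 ± 0.19, from a mean of 3.20 to 8.60 FPKM, and had a mean of 10.5 FPKM in D150-ROs with no call. STX3 made up 75.5% to 78.6% of the FPKM of both syntaxins at D70 and 92.1% to 93.3% at D150. A high share was not particular to D150-ROs. It was 89.5% to 90.6% in hiPSCs, 82.0% to 85.5% in P1 iMGCs and 90.2% to 92.8% in P5 iMGCs. VAMP2, the vesicle SNARE, measured 9.80, 10.2 and 8.77 FPKM in hiPSCs, 51.2, 57.7 and 52.1 at D70 and 125, 125 and 124 at D150. Its second step, 0.96 ± 0.09 on the log2 scale, was under the 2-fold limit, and was called at 1.04 without D70-RO replicate 2, at 1.20 and 1.21 with limma and at 1.15 with a length trend removed. VAMP1, its close relative, had means of 3.64, 2.84 and 5.79 FPKM and was called higher only from D70 to D150 (1.25 ± 0.13), a call lost with limma at a pseudocount of 1 (0.83). Parts of STX1A (17.9% of exon bases, with BUD23), VAMP2 (13.2%, with AC129492.3) and VAMP1 (9.47%, with TAPBPL) are shared with another gene.

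All 4 complexins were called higher at D70 than before, by 5.55 to 6.08 on the log2 scale, and they then took separate courses. CPLX4 measured 0.18, 0.27 and 0.12 FPKM in hiPSCs, 9.00, 11.1 and 9.55 at D70 and 72.8, 81.7 and 96.4 at D150, rising between the RO stages by 2.86 ± 0.14 (adjusted p = 5.41e-07 by edgeR). CPLX2 measured 29.9, 32.6 and 32.0 FPKM at D70 and 14.1, 15.3 and 15.0 at D150, and fell by 1.42 on the log2 scale (adjusted p = 2.26e-06). CPLX4 and CPLX3 are the complexins of ribbon synapses, and CPLX1 and CPLX2 those of conventional ones. CPLX3 measured 30.7, 35.8 and 31.9 FPKM at D70 and 49.3, 45.8 and 43.1 at D150, and CPLX1 had means of 18.2 and 13.0 FPKM, with no call for either between the RO stages. CPLX3 and CPLX4 together made up 44.4% to 48.7% of the complexin FPKM at D70 and 82.0% to 82.8% at D150.

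**Figure D3:**
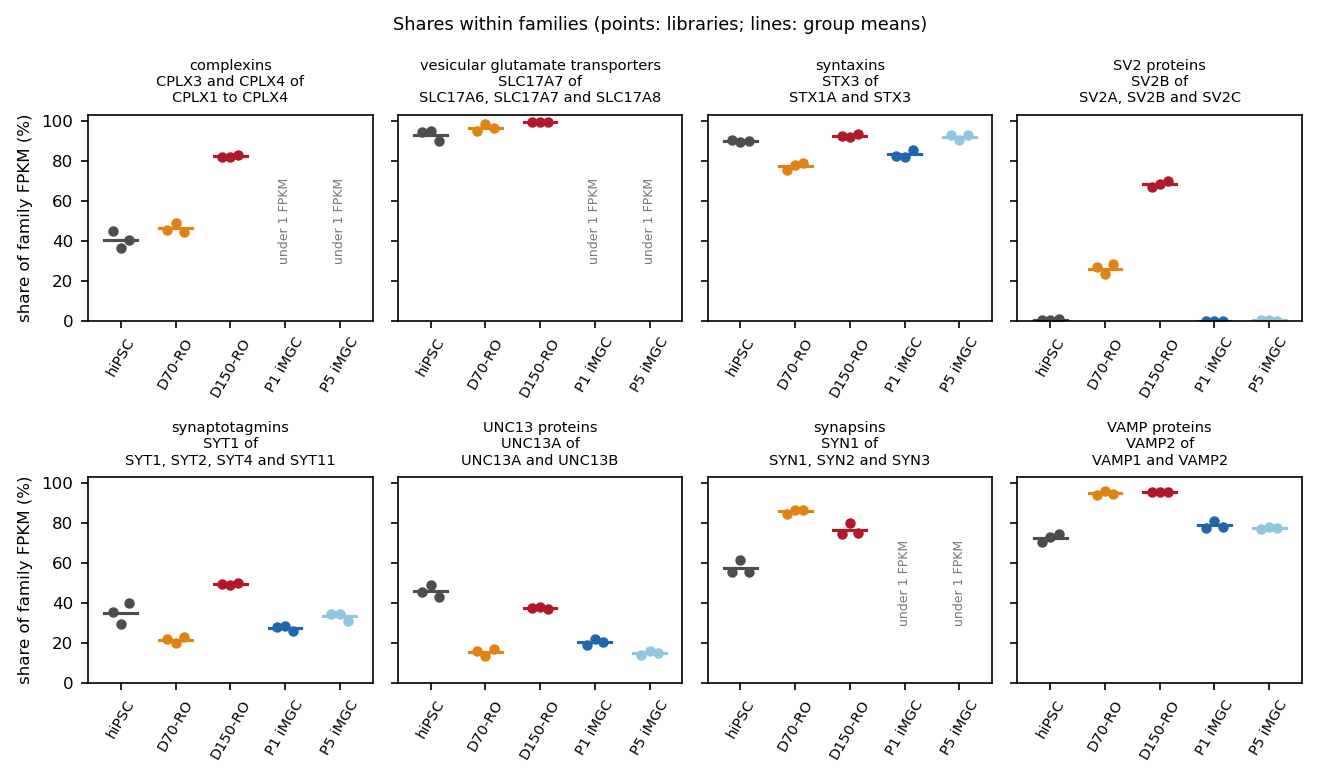
Share (%) of a family's summed FPKM held by the genes named above each panel, by library (points) and group mean (lines); groups with a library under 1 FPKM for the family are left out. From D70-ROs to D150-ROs the shares of CPLX3 with CPLX4 (from 46.2% to 82.3% on average), SV2B (from 26.1% to 68.4%) and SYT1 (from 21.6% to 49.7%) rose without overlap between the libraries. In hiPSCs the SYT1 share was 29.3% to 39.9%.

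Of the 6 priming and active zone proteins 5 were tested, of which 2 were called higher and 1 lower at D70 and 3 higher from D70 to D150. UNC13A and UNC13B prime docked vesicles for fusion. UNC13A measured 14.7, 17.9 and 12.3 FPKM in hiPSCs, 4.30, 3.41 and 5.26 at D70 and 18.4, 16.9 and 17.5 at D150, with log2 fold changes of -1.92 and then 1.80 ± 0.13. The rise of UNC13A was 0.78 and under the limit when a length trend was removed, whereas UNC13B had means of 17.5, 23.3 and 29.4 FPKM and was called in neither step. RIMS2, a scaffold that binds calcium channels, measured 2.45, 1.94 and 2.57 FPKM at D70 and 23.8, 23.8 and 24.7 at D150, a log2 increase of 3.14 ± 0.11 (adjusted p = 1.3e-07 by edgeR). Its relative RIMS1 exceeded 1 FPKM in 2 D70-RO libraries and in 1 P5 iMGC library and in no other. Bassoon (BSN) and Piccolo (PCLO) are giant scaffolds, and Bassoon anchors the photoreceptor ribbon. PCLO measured 0.48, 0.45 and 0.75 FPKM in hiPSCs, 2.70, 2.39 and 3.17 at D70 and 16.5, 15.1 and 15.2 at D150, called higher in both steps at 2.04 ± 0.22 and 2.60 ± 0.16. BSN had means of 0.47, 5.44 and 7.93 FPKM, called higher to D70 at 3.39 ± 0.25. Its second step was 0.32 ± 0.17 and not called, and turned to -1.07, called lower, when a length trend was removed.

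The genes of ribbon calcium entry had low levels until D150. CACNA1F, the pore of the photoreceptor L-type calcium channel Cav1.4, measured 0.28, 0.19 and 0.57 FPKM in hiPSCs, 0.62, 0.44 and 0.61 at D70 and 26.2, 21.8 and 25.1 at D150. Its rise from D70 to D150 was 5.13 ± 0.13 on the log2 scale (adjusted p = 4.16e-08 by edgeR). CACNA2D4, the auxiliary subunit of that channel, measured 0.25, 0.13 and 0.23 FPKM in hiPSCs, 1.35, 1.00 and 1.24 at D70 and 26.6, 22.5 and 27.2 at D150. It was already called higher at D70, at 3.00 ± 0.28, a call lost with limma at a pseudocount of 1 (0.87). Its rise from D70 to D150 was 4.34 ± 0.13. CABP4, a calcium-binding protein that tunes Cav1.4, measured 0.04, 0.14 and 0 FPKM at D70 and 2.92, 3.17 and 3.79 at D150, with a log2 fold change of 5.78 ± 0.50 that rests on 6 counts over the D70-RO libraries. UNC119, a lipid-binding protein enriched in photoreceptors that binds RIBEYE and CABP4, had the highest level of all 35 genes, 530, 522 and 537 FPKM in D150-ROs against 131, 139 and 138 in D70-ROs and 45.7, 47.6 and 46.6 in hiPSCs. It was called higher in both steps, at 1.37 ± 0.10 and 2.03 ± 0.08. CTBP2 did not follow these genes: it measured 89.6, 92.4 and 97.2 FPKM in hiPSCs, 50.2, 42.8 and 47.6 at D70 and 62.7, 53.7 and 59.9 at D150, with no call. Gene-level values cannot separate the RIBEYE transcript of CTBP2 from its ubiquitous corepressor transcript, and CTBP2 shares 31.2% of its exon bases with ZRANB1 on the opposite strand.

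Among the vesicular glutamate transporters SLC17A7 alone was abundant. SLC17A7 measured 1.86, 1.42 and 1.62 FPKM in hiPSCs, 43.7, 56.8 and 50.9 at D70 and 75.6, 75.0 and 94.5 at D150. It was called higher at D70 (4.81 ± 0.17, adjusted p = 1.89e-09 by edgeR) and rose by 0.47 ± 0.13 after that, under the 2-fold limit. SLC17A7 held 94.7% to 98.6% of the transporter FPKM at D70 and 99.2% to 99.4% at D150. SLC17A6 (VGLUT2, used by retinal ganglion cells) was highest in D70-ROs at 1.76, 0.56 and 1.60 FPKM, and SLC17A8 (VGLUT3, found in some amacrine cells) stayed at or below 0.69 FPKM in every library. SLC17A6 had 0.03 to 0.11 FPKM in hiPSCs, 0.36 to 0.54 in D150-ROs and 0 in every iMGC library. The summed FPKM of 11 ganglion cell markers was 471 to 513 in hiPSCs, 261 to 303 at D70, 43.0 to 50.4 at D150 and 79.9 to 97.5 in iMGCs. This sum mixes genes of opposite course. Of 10 tested, 5 were called higher at D70 than in hiPSCs (POU4F2 at 9.19) and 2 lower (THY1 at -4.69 and RBPMS at -4.06). From D70 to D150 all 10 tested were called lower. Their part in the SLC17A6 values was not tested. NRXN3, a presynaptic adhesion protein, measured 1.25, 0.84 and 0.92 FPKM at D70 and 16.8, 15.1 and 12.9 at D150, a log2 increase of 3.86 ± 0.14 (adjusted p = 1.47e-07 by edgeR).

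In P1 iMGCs, 25 of the 29 genes tested were called lower than in the D150-ROs and 0 were called higher, where 24.1% of all 12896 genes tested were called lower and 20.0% higher. A mean of at least 1 FPKM was reached by 29 genes in D150-ROs and by 12 in P1 iMGCs. The other genes tested entered only through the D150-ROs, where they were high, so that a lower level was built into their test. At an unadjusted p under 0.05 1 gene, NRXN3, was higher, and DESeq2 called 0 genes higher as well. The median log2 fold change was -5.10 over the 29 genes, also with genes without counts set at the bounds given below, and -0.05 over all genes tested. Over all genes edgeR called 2581 higher and 3105 lower, against 1329 and 4478 by limma on log2(FPKM + 1), with a median of -0.59, and 3224 and 2551 with a length trend removed, with a median of 0.21. The 25 genes stayed called lower under limma and with the length trend removed.

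In the P1 iMGC libraries no count was found for 10 of the 35 genes, namely SV2B, SYN3, SYT2, SYT4, CPLX2, CPLX3, CACNA1F, CACNA2D4, CABP4 and SLC17A6. For these a fold change is a lower bound, set against 3 counts over the group. SV2B, with 16342 counts over the D150-RO libraries, was at least 3625-fold lower, SYT4 at least 1617-fold lower and CPLX3 at least 1025-fold lower. CACNA1F was at least 1356-fold lower and CABP4, with 403 counts in D150-ROs, at least 89.4-fold lower. CPLX4 had 1 count against 7953, a log2 ratio with a 95% counting interval of -17.67 to -9.89. These limits cover counting error only. The complexins and the calcium entry genes other than UNC119 and CTBP2 thus lay at or below 0.21 FPKM in every iMGC library.

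Several genes that were among the highest in D150-ROs left a trace. SYP measured 0.41, 0.22 and 0.27 FPKM in P1 iMGCs, a log2 fold change of -8.35 ± 0.10 against D150-ROs (adjusted p = 9.89e-19 by edgeR). SNAP25 measured 0.49, 0.77 and 0.50 FPKM (-7.22 ± 0.10), and SLC17A7 0.09, 0.05 and 0.05 FPKM (-9.88 ± 0.19). The libraries of undifferentiated hiPSCs had 0.58 to 0.93 FPKM of SNAP25 and 1.42 to 1.86 of SLC17A7. The active zone genes BSN, PCLO and RIMS2 had means of 0.16, 0.52 and 0.33 FPKM in P1 iMGCs, and the log2 fold changes were -5.02, -3.98 and -5.58. SYN1 had a mean of 0.75 FPKM, at -4.22 on the log2 scale.

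The 12 genes with a mean of at least 1 FPKM in the iMGCs were SV2A, SYT1, SYT11, STX1A, STX3, VAMP1, VAMP2, UNC13A, UNC13B, CTBP2, UNC119 and NRXN3. SYT11 measured 19.2, 19.6 and 19.8 FPKM in P1 iMGCs, STX3 13.4, 13.3 and 12.5, and VAMP2 13.1, 13.9 and 13.3, and each lay below every D150-RO library and was called lower, at -1.55, -2.55 and -2.58 on the log2 scale. SYT1 remained at 7.43, 7.91 and 6.99 FPKM at a log2 fold change of -3.42. UNC119, the most abundant in D150-ROs, had 11.7, 9.63 and 10.9 FPKM, a log2 fold change of -5.10 ± 0.07. The 4 genes that were tested and not called were SV2A (-0.57), VAMP1 (-0.51), CTBP2 (-0.99) and NRXN3 (0.73). CTBP2 measured 23.7, 18.8 and 21.8 FPKM and sits at the limit: it was called lower without D150-RO replicate 2 (-1.05), without P1 iMGC replicate 1 (-1.04) or without replicate 3 (-1.03), with limma (-1.42 and -1.46) and with upper-quartile scaling (-1.10). SV2A was likewise called lower with limma (-1.13 and -1.21). NRXN3 measured 20.0, 19.8 and 18.6 FPKM in P1 iMGCs, all above the 3 D150-RO libraries (adjusted p = 2.68e-07 by edgeR), and was the gene with its highest mean outside hiPSCs and ROs. It was called higher, at 1.12, when a length trend was removed.

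**Figure D4:**
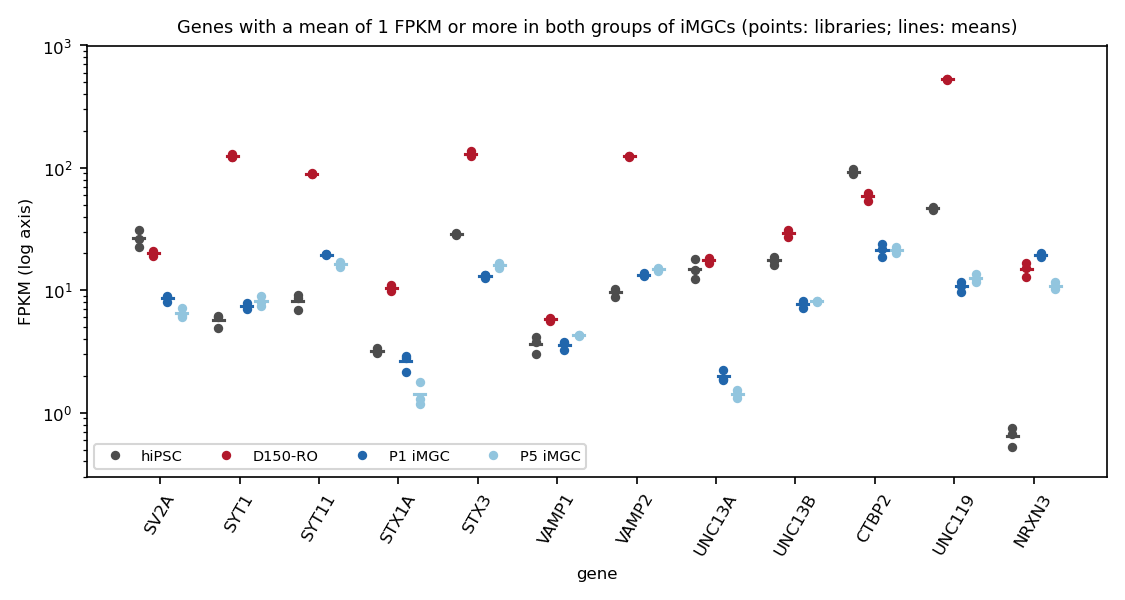
FPKM on a log axis of the 12 genes with a mean of at least 1 FPKM in P1 and P5 iMGCs, in hiPSCs, D150-ROs, P1 iMGCs and P5 iMGCs (points are libraries, lines are group means). In D150-ROs SYT1, SYT11, STX1A, STX3, VAMP1, VAMP2, UNC13B and UNC119 stand above every other group shown. NRXN3 is at 18.6 to 20.0 FPKM in P1 iMGCs and below 1 FPKM in hiPSCs.

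Between P1 and P5 iMGCs 0 of the 12 genes tested were called in either direction, where 1.94% of all 11366 genes tested were called higher and 0.977% lower. At an unadjusted p under 0.05 10 of the 12 differed, and DESeq2 also called 0. By adjusted p alone 3 genes were higher in P5 iMGCs and 5 lower, where 16.6% of all genes were higher and 14.0% lower. NRXN3 measured 11.6, 10.9 and 10.2 FPKM in P5 iMGCs, below the 18.6 to 20.0 FPKM of P1 iMGCs, with a log2 fold change of -0.75 ± 0.05 (adjusted p = 3.71e-11 by edgeR), under the 2-fold limit. STX1A measured 2.82, 2.92 and 2.13 FPKM in P1 iMGCs and 1.30, 1.77 and 1.18 in P5 iMGCs (-0.79 ± 0.19). STX3 was 0.34 higher on the log2 scale, VAMP1 0.32 and VAMP2 0.25, and SV2A, SYT11 and UNC13A were lower at -0.35, -0.21 and -0.44. SYT1, UNC13B and CTBP2 overlapped between the passages. Of the genes without counts at P1, SV2B, SYN3 and SYT2 had 1 to 4 counts over the P5 libraries, and CPLX4, with 1 count at P1, had none.

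Compared with hiPSCs, the P5 iMGCs had 3 genes called higher and 11 called lower among 19 tested, where 26.9% of all 12699 genes tested were called higher and 29.3% lower. The median log2 fold change was -1.64 over the 19 genes and -0.07 over all genes tested. Over all genes edgeR called 3420 higher and 3717 lower, and limma on log2(FPKM + 1) 2263 and 4267, with a median of -0.38. NRXN3 was higher by 4.29 ± 0.14 on the log2 scale (adjusted p = 2.47e-11 by edgeR), from 0.52 to 0.75 FPKM in hiPSCs. SYT11 was higher by 1.33 ± 0.12, a call lost with limma (0.91 and 0.99) and with a length trend removed (0.89), and VAMP2 by 1.02 ± 0.11. The call of VAMP2 sat at the limit and was lost without hiPSC replicate 3 (0.94), P5 iMGC replicate 2 (0.95) or P5 iMGC replicate 3 (1.00), with limma (0.58 and 0.62), with upper-quartile scaling (0.89) and with a test against a 2-fold change. VAMP1, not called at 0.94, was called at 1.03 without hiPSC replicate 2 and at 1.35 with a length trend removed. The genes called lower included SYP (-4.66 ± 0.27), SYN2 (-6.32 ± 0.30), UNC13A (-3.15 ± 0.16), SLC17A7 (-3.55 ± 0.29), CTBP2 (-1.64 ± 0.08) and UNC119 (-1.46 ± 0.10), of which UNC119 lost its call with a length trend removed (-0.85). SYN1, RIMS2 and SV2A were lower at -3.52, -2.45 and -1.69. SYN3 had 1 count in P5 iMGCs against 711 in hiPSCs and SYT2 had 3 against 845, with 95% counting intervals of the log2 ratio of -14.19 to -6.40 and -9.82 to -5.99.

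Further genes of these pathways were examined as lists, some of whose genes stand in more than 1 list. Of 50 other genes of vesicles and release, 22 of 44 tested were called higher and 4 lower at D70 than in hiPSCs, 13 of 44 higher and 7 lower from D70 to D150, and 1 of 43 higher and 33 lower in P1 iMGCs than in D150-ROs. Synaptoporin (SYNPR), a relative of SYP, had the largest increase to D70 (7.03), followed by DOC2B (6.30) and PPFIA2 (5.94). The gene called higher in P1 iMGCs was RAB3B, at 2.05, a vesicle GTPase. Between passages 1 of 25 was called lower, and from hiPSCs to P5 iMGCs 7 of 37 were higher and 19 lower. Of all genes tested, 22.5% were called higher and 21.1% lower at D70, and 16.6% and 16.7% from D70 to D150. The shares were 20.0% and 24.1% in P1 iMGCs, 1.94% and 0.977% between passages, and 26.9% and 29.3% from hiPSCs to P5 iMGCs. The median log2 fold changes of this list were 0.98, 0.18, -2.88, -0.02 and -1.52 in these 5 comparisons.

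Of 23 other ribbon synapse genes, on both sides of the synapse, 11 of 14 tested were called higher and 2 lower at D70, 14 of 19 higher and 0 lower from D70 to D150, and 14 of 19 lower and 0 higher in P1 iMGCs. The shares of all genes called are those given with the list before. At an unadjusted p under 0.05 edgeR had 2 of the 19 lower at D150 and 3 higher in P1 iMGCs, and DESeq2 called 0 in these directions. MPP4, a photoreceptor synapse scaffold, rose by 4.89 on the log2 scale from D70 to D150, from a mean of 2.79 to 105 FPKM, followed by CABP5 (3.80) and GPR179 (3.75). TRPM1 and NYX, which act in ON bipolar dendrites, did not exceed a mean of 0.14 FPKM in any group. Between passages 0 of 8 were called by edgeR and by DESeq2, with 1 lower at an unadjusted p under 0.05, and 4 of 10 were higher and 2 lower in P5 iMGCs than in hiPSCs. The median log2 fold change was 1.62 at D70, 2.45 from D70 to D150, -5.58 in P1 iMGCs (-5.26 with genes without counts set at their bound) and 0.39 in P5 iMGCs against hiPSCs.

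The general secretion SNAREs and their partners, whose use is not limited to synapses, are listed beside them. Of 24, 4 were called higher and 5 lower of 24 tested at D70, 2 and 4 of 23 from D70 to D150, 8 and 2 of 23 in P1 iMGCs against D150-ROs, 0 of 21 between passages (9 at an unadjusted p under 0.05, and 0 by DESeq2), and 11 and 4 of 24 in P5 iMGCs against hiPSCs. Over all genes 22.5% were higher and 21.1% lower at D70, 16.6% and 16.7% from D70 to D150, 20.0% and 24.1% in P1 iMGCs, and 26.9% and 29.3% in P5 iMGCs. For the list the median log2 fold changes were 0.03, -0.39, 0.58, -0.03 and 0.84. VAMP3, the vesicle SNARE of recycling endosomes, had means of 18.8 FPKM in D150-ROs and 87.5 in P1 iMGCs (3.00 on the log2 scale), and SNAP23, the widely expressed relative of SNAP25, had 12.0 and 49.6 (2.78). Synaptophysin-like SYPL1 had 10.2 and 45.7 FPKM (2.78), beside 0.30 FPKM of SYP in P1 iMGCs. VAMP5 had the largest called increase of the list, at 3.66. Of 5 inhibitory and monoamine vesicle transporters, 1 was called higher and 1 lower of 2 tested in each step of the ROs, and SLC32A1, the transporter of GABA and glycine, had a mean of 2.76 FPKM in D150-ROs and none in the iMGCs.

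Regulators of neuronal genes were listed as well. Of 12 repressors and splicing factors, 3 were called higher and 1 lower at D70, 2 and 1 from D70 to D150, and 2 and 5 in P1 iMGCs against D150-ROs, against the shares of all genes just given for these comparisons. REST, the factor named above, had means of 6.14 FPKM in hiPSCs, 5.94 at D70, 9.29 at D150, 12.5 at P1 and 11.2 at P5. SRRM4, a neuronal splicing factor, had means of 0.58 FPKM in hiPSCs, 7.60 at D70 and 38.8 at D150 and no FPKM above 0 in the iMGC means, and PTBP1, a repressor of neuronal exons, had means of 376, 105, 67.0, 83.7 and 76.2 FPKM in the same order. No relation of these genes to the 35 was tested.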

How the data were processed

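Per the labels, HISAT2 was used for mapping, StringTie for assembly and RSEM for quantification. Versions, genome build and strandedness are not given in the sources used here. The deposited tables hold, per library, expected counts, which the authors did not normalize, and FPKM, in which they took transcript length and depth into account. Expected counts were rounded. A table of D150-ROs beside iMGCs of unstated passage was not used (6 columns without a sample). Columns of the authors' own comparisons (fold changes, p-values) were not used. Symbols and positions are those of GENCODE release 29 (GRCh38).

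Tests used edgeR 4.0.16 in R 4.3.3: quasi-likelihood with TMM factors on the libraries compared, after a filter of 1 FPKM in 3 libraries, with Benjamini-Hochberg adjustment over all genes tested, two-sided, called at an adjusted p of 0.05 and a fold change of 2. Alternatives were DESeq2 1.42.0, limma 3.58.1 on log2(FPKM + 1) and log2(FPKM + 0.1), other scalings and filters, a length trend removed, a replicate block and leaving out each library. The code was tested on simulated data. All 35 genes are named, in order of role, with values in every library for those with the highest levels, the largest called changes or a course against their role; of other lists at most 3 genes in each direction are named for their change, and further genes of those lists, such as SNAP23, REST and PTBP1, were chosen after their values were seen. The 35 genes and all lists (other vesicle and release genes, other ribbon genes, general secretion SNAREs, inhibitory and monoamine transporters, repressors and splicing factors, genes nested in synapsins, and photoreceptor, bipolar, amacrine and horizontal, ganglion cell, pan-neuronal, glial, pigment epithelium, mesenchymal and pluripotency markers) were chosen with earlier results of these data known. With 3 libraries per group, and no record of which cultures or ROs were separate beyond the experiments stated, p-values measure the spread between these libraries.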

Additional observations from a re-analysis of the deposited data

How the results depend on the processing

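Of 1989 values of single genes under the alternatives, 1931 kept their direction and their side of the threshold, 18 lost a call, 22 gained one and 18 turned direction, and the cause was not tested. The genes that turned were STX3 from hiPSCs to D70-ROs (0.027 and 0.028 with limma at the pseudocounts of 1 and 0.1), STX1A from D70-ROs to D150-ROs (0.26 and 0.29 with limma, 0.34 with a length trend removed, -0.13 to 0.064 with 1 library left out), SV2A (-0.24), SYT11 (-0.42) and BSN (-1.07) with a length trend removed, and CTBP2 between passages. CTBP2, at 0.00 in the comparison of the passages, was -0.00067 with DESeq2, -1.68e-05 with upper-quartile scaling, -0.00095 with RLE size factors, -0.0094 with all 15 libraries in 1 fit, -0.021 with a length trend removed, and -0.087 to 0.056 with 1 library left out. The genes called lower from D70-ROs to D150-ROs numbered 1 with limma at either pseudocount, 1 with a test against a 2-fold change and 5 without a filter. Those called higher in P1 iMGCs than in D150-ROs numbered 1 with a length trend removed (NRXN3). From hiPSCs to P5 iMGCs 1 gene was called higher with limma at either pseudocount, and 21 were called lower without a filter, where 35 were tested. Leaving out 1 library gave 17 genes called higher and 4 to 5 lower to D70, 15 to 16 higher and 2 lower from D70 to D150, 0 higher and 25 to 26 lower in P1 iMGCs, 0 and 0 between passages, and 2 to 4 higher and 11 lower from hiPSCs to P5 iMGCs. The replicate numbers were not taken to pair the samples, since no comparison had every correlation of same-numbered deviations over 0.1 (-0.08 to 0.35 over 15 pairs, with 0.35 and 0.137 for replicates 2 and 3 of hiPSCs with D70-ROs and 0.137 for replicate 2 of hiPSCs with P5 iMGCs). With a replicate block the counts were 17 and 4, 15 and 2, 0 and 25, 0 and 0, and 3 and 11, with no count changed. The genes without counts in iMGCs have changes that the depth bounds only from below. The log2 fold change of CABP4 from D70-ROs to D150-ROs rests on 6 counts at D70 and ran from 2.02 to 6.93 over the alternatives.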

Other observations

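The marker lists give the setting of these genes. The shares of all genes called in the same comparisons are given with the lists of vesicle and release genes above. Of the photoreceptor markers 7 of 10 tested were called higher at D70, 12 of 12 higher from D70 to D150 and 12 of 12 lower in P1 iMGCs than in D150-ROs, and the bipolar markers had 5 higher and 1 lower of 6, 7 and 2 of 9, and 1 and 8 of 9. Of the amacrine and horizontal markers 6 of 8 were higher at D70, 5 were higher and 2 lower of 12 at D150, and 1 was higher and 9 lower of 10 in P1 iMGCs. Of the ganglion cell markers 5 of 10 were higher and 2 lower at D70, 10 of 10 were lower at D150, and 2 were higher (RBPMS and THY1, of which THY1 stands among the mesenchymal markers too) and 3 lower of 5 in P1 iMGCs. The pan-neuronal markers, among them STMN2 and TUBB3, were called higher in 8 of 8 at D70, and then 6 of 8 were called lower and 1, MAP2, higher at D150, while 15 of the 29 vesicle and ribbon genes tested were called higher there.

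Of the glial markers 7 were called higher and 1 lower of 10 at D70, 5 and 1 of 11 at D150 and 3 and 7 of 11 in P1 iMGCs, of the pigment epithelium markers 1 of 2 was called higher at D70, 1 higher and 1 lower of 4 at D150 and 1 and 3 of 4 in P1 iMGCs, and of the mesenchymal and matrix markers 1 higher and 5 lower of 7 at D70, 1 and 2 of 7 at D150 and 9 of 9 higher in P1 iMGCs. The pluripotency markers were called lower in 6 of 6 at D70. Of the genes that lie within a synapsin gene or overlap it, TIMP3 was called higher and TIMP4 lower at D70, TIMP3 was called lower at D150, and TIMP1 was called higher in P1 iMGCs (1.44).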
